A study of Mus musculus with 2 samples.

Results

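Mir126a is the gene of the microRNA (miRNA) miR-126 in the mouse, and its hairpin lies within Egfl7, a gene of endothelial cells. It was taken as the row of the deposited count tables whose Ensembl ID, ENSMUSG00000065540.1, belongs to Mir126a, and it is 1 of 1973 counted miRNA genes. MicroRNA sequencing of RNA under 30 nt measured it in hearts of B6NCrl mouse embryos at day 11.5 (E11.5), with tissue of males and females pooled. The 2 libraries, replicates 1 and 2, are labelled as biological replicates of 1 group, and the labels name no treatment, mutation or control group. Replicate 1 pooled 109 embryos, and no source used here gives that number for replicate 2. The whole heart holds muscle, endothelium, endocardium, mesenchyme and blood, so a count describes the mixture, and fewer cells of a type and less RNA per cell cannot be told apart.

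A miRNA is cut from the arms of a hairpin, and its seed, bases 2 to 8 counted from the 5′ end, pairs with target messages and lowers their output. miR-126 is known as a miRNA of the endothelium, the cell layer that lines vessels and, as endocardium, the heart chambers. It is known to hold vessels intact and to favour signalling by vascular endothelial growth factor by lowering Spred1 and Pik3r2, which restrain that pathway.

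The hairpin lies on the plus strand at chr2:26591357-26591429 (GRCm38, also called mm10) and is 73 bases long. RefSeq (GRCm38.p6) gives the hairpin with the 3′ arm product miR-126a-3p, shown here in capitals at bases 46 to 67. The hairpin sequence matters because the own-strand counts of Mir126a are reads on the hairpin, and they do not separate its arms.
Mir126a hairpin: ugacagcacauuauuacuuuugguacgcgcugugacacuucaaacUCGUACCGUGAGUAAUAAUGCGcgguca

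The opposite strand of the same bases carries a second annotated hairpin, Mir126b, at chr2:26591363-26591420. Its 58 bases are the exact reverse complement of the Mir126a hairpin from base 7 on, so only the strand separates reads of the 2 genes. The 3 mature sequences that RefSeq gives for the pair are shown with the seed in capitals, to let the strands and seeds be compared.
miR-126a-3p: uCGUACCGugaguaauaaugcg
miR-126b-5p: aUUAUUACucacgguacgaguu
miR-126b-3p: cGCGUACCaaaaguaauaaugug
miR-126a-3p lies at chr2:26591402-26591423 on the plus strand. On the minus strand, miR-126b-5p lies at chr2:26591399-26591420 and miR-126b-3p at chr2:26591363-26591385. The other arm of Mir126a, miR-126a-5p, is named only.

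No seed in this set was shared. Among 1738 RefSeq mature miRNAs of the mouse, 0 others had the bases 2 to 8 of miR-126a-3p, miR-126b-5p or miR-126b-3p, and 0 had the bases 2 to 7. miR-126a-3p therefore forms a seed group of its own. The longest run of bases that miR-126a-3p shared with any of 1003 hairpins other than Mir126a and Mir126b, on either strand, was 9, with Mir34a. In GENCODE M21 the whole mature sequence occurred in the Mir126a transcript and in the Egfl7 transcript Egfl7-206, which covers the same place, and in no other transcript. By RNAfold, the hairpin had a predicted minimum free energy of -31.2 kcal/mol with 27 base pairs. Of the 22 bases of miR-126a-3p, 19 were paired in that structure, among them 7 of 7 seed bases.

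Egfl7, which encodes a protein secreted by endothelial cells, spans chr2:26580014-26593120 on the plus strand and has 19 annotated transcripts. The hairpin lay in an intron of 8 of them, in an exon of 1 and outside the other 10. That exon is exon 4 of Egfl7-206, a transcript with a retained intron. In the transcript Egfl7-202 the hairpin lay in the intron between exons 7 and 8. This intron is 600 bases long, with 293 bases before the hairpin and 234 after it. A second gene on the same strand, Gm20532, whose transcript is annotated for nonsense-mediated decay, also has the hairpin in an intron.

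**Figure D1:**
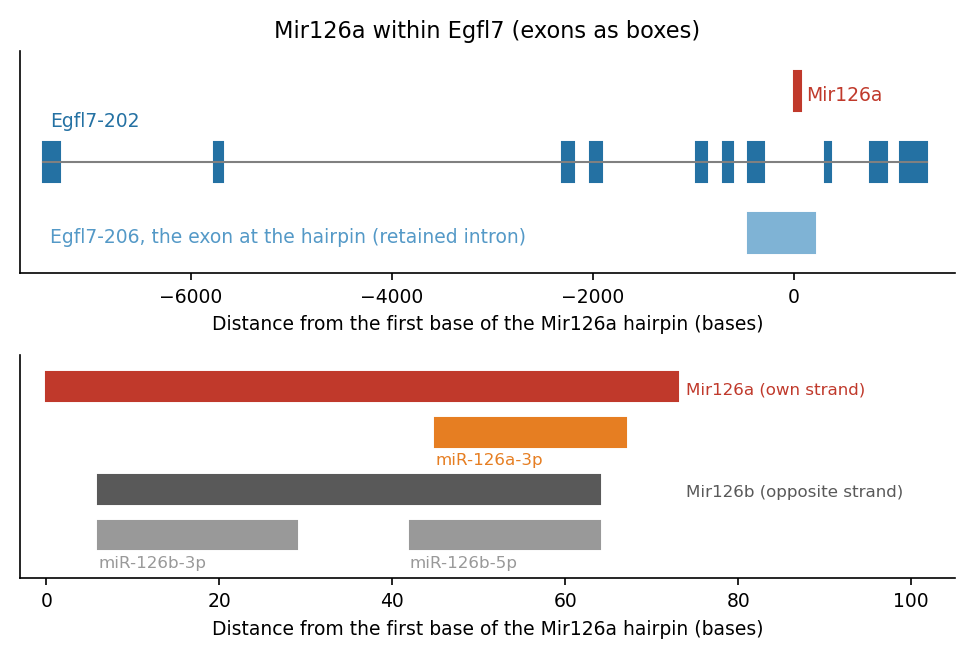
Map of the Mir126a hairpin in Egfl7 (upper panel) and of the annotated miRNAs at the hairpin (lower panel), by distance in bases from its first base. Boxes in the upper panel are exons of Egfl7-202, the Mir126a hairpin and the Egfl7-206 exon, and Mir126a lies between exons 7 and 8 of Egfl7-202. In the lower panel Mir126b, drawn in dark grey, lies inside the 73 bases of Mir126a on the opposite strand.

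Mir126a was among the most counted miRNA genes of the embryonic heart. Replicate 1 held 1468251 own-strand reads on the gene and replicate 2 held 170864. As counts per 1000000 own-strand miRNA reads (CPM), this was 79504.6 CPM in replicate 1 and 84699.6 CPM in replicate 2, with a mean of 82102.1 ± 3673 (SD, n = 2). The levels thus lay close together, at a 9.15-fold difference in depth between the libraries.

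As a share of own-strand miRNA reads, Mir126a took 7.95% in replicate 1 (exact 95% Clopper-Pearson interval 7.938 to 7.963) and 8.47% in replicate 2 (8.432 to 8.508). The mean was 8.21% ± 0.37 (SD, n = 2), or 1 read in 12.2. The intervals cover the error of counting reads only. Several reads can stem from 1 molecule and no molecular identifier separates them, so the error of sampling molecules is not covered. The intervals did not overlap, so the libraries differed by more than the error of counting reads. Against all reads that mapped anywhere, the share was 4.13% in replicate 1 and 4.83% in replicate 2. Against all reads, unmapped ones included, it was 2.54% and 3.50%.

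The libraries themselves held 18467499 own-strand miRNA reads in replicate 1 and 2017294 in replicate 2. Multimapping reads were 33.8% and 33.2% of mapped reads, and stood on no gene. Unmapped reads were 38.4% and 27.5% of all reads. With these totals, a count of 0 allowed up to 0.162 CPM in replicate 1 and up to 1.49 CPM in replicate 2, from 3 counts. A gene counted as detected when it reached 1 CPM in each library, which 419 genes did.

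Nearly all reads at the locus lay on the Mir126a strand. The strand of Mir126b held 81 reads in replicate 1 and 8 in replicate 2, or 4.39 and 3.97 CPM. The own strand therefore took 99.9945% of the reads at the locus in replicate 1 and 99.9953% in replicate 2. There were 18127 own-strand reads for each opposite-strand read in replicate 1 and 21358 in replicate 2. The opposite-strand share was 0.00552% (exact 95% interval 0.00438 to 0.00686) and 0.00468% (0.00202 to 0.00922), and these intervals overlapped. Over all genes the opposite strand took 4.59% and 4.48% of reads. That total includes rows whose reads lie mainly on the opposite strand, such as Mir142b, with 44629 opposite-strand reads and 1 own-strand read in replicate 1. Mir126b was not counted as a separate gene, so the opposite-strand reads of the Mir126a row are the only reads counted where it lies, and whether they came from Mir126b was not tested.

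Other well-counted genes gave a scale for that small share. Of 110 genes with at least 1000 own-strand reads in both libraries, Mir126a among them, the highest opposite-strand shares were 0.611% in replicate 1 and 1.02% in replicate 2. No opposite-strand read was seen at 88 genes in replicate 1 and at 102 in replicate 2. Over the reads of these 110 genes pooled, the share was 0.00140% in replicate 1 and 0.00152% in replicate 2, below that of Mir126a in both libraries. Mir126a held 81 of their 252 opposite-strand reads in replicate 1 and 8 of 30 in replicate 2. Many of these genes have too few reads to show a share as small as that of Mir126a, so its place among them was not ranked.

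RefSeq gives 24 pairs of mouse hairpins that overlap on opposite strands, as Mir126a and Mir126b do, and each pair had 1 counted row. At least 100 reads in both libraries were seen at 12 pairs, that of Mir126a and Mir126b included. At the pair Mir24-1 and Mir3074-1 the strand with fewer reads, the weaker strand, took 30.9% and 30.6%. Both names mark miRNAs that can occur at several loci, and multimapping reads stood on no gene. Reads may therefore be missing from either strand of this pair, which makes its share uncertain and was not tested. At the pair Mir374b and Mir374c it took 0.611% and 1.02%, and at the pair Mir299a and Mir299b 0.359% and 0.275%. Each of these 3 pairs had a larger share of reads on the weaker strand than the pair with Mir126a, in both libraries. A smaller share was seen at 3 of the 12 pairs in replicate 1 and at 5 in replicate 2. Those pairs had far fewer reads than Mir126a and were not compared with it.

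In the order of mean CPM, Mir126a was the third gene in both libraries. The gene above all others was Mir335, which lies in the imprinted gene Mest, with 115611 CPM in replicate 1 and 108077 CPM in replicate 2. It was 1.36-fold above Mir126a. Next came Mir143, a miRNA of smooth muscle, with 92563.5 and 97313 CPM, 1.16-fold above Mir126a. The log2 ratio of Mir126a to Mir335 was -0.45 ± 0.13 (SD, n = 2), and that to Mir143 was -0.21 ± 0.01. Both libraries put both genes above Mir126a, and the exact binomial intervals excluded equality in each.

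Mir322, a miRNA of the Mir322 and Mir503 cluster on chromosome X, was the gene just below. It had 78754.5 CPM in replicate 1 and 81862.6 CPM in replicate 2. Mir126a was above it by 0.952% in replicate 1 and by 3.47% in replicate 2. The levels overlapped across the libraries, since Mir322 in replicate 2 stood above Mir126a in replicate 1. Within the libraries the log2 ratio of Mir126a to Mir322 was 0.03 ± 0.03 (SD, n = 2), and the mean exceeded the SD only narrowly. These 2 genes are neighbours whose order rests on a few percent of counts.

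Below this pair the levels fell away. Mir99a stood at 55497 and 52645 CPM, and Mir126a was 1.52-fold above it. Mir208b, a miRNA in the heart muscle gene Myh7, stood at 46467.5 and 50210.8 CPM, and Mir126a was 1.70-fold above it. Mir30e, at 24181 and 25766 CPM, was 3.29-fold below Mir126a, and Mir26b, at 25138.5 and 22333 CPM, 3.46-fold below. All 418 other detected genes (100%) differed from Mir126a by more than the spread, meaning that both libraries went the same way, both exact intervals excluded equality and the mean log2 ratio exceeded its SD. Mir126a was the higher in 416 of them (99.5%).

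**Figure D2:**
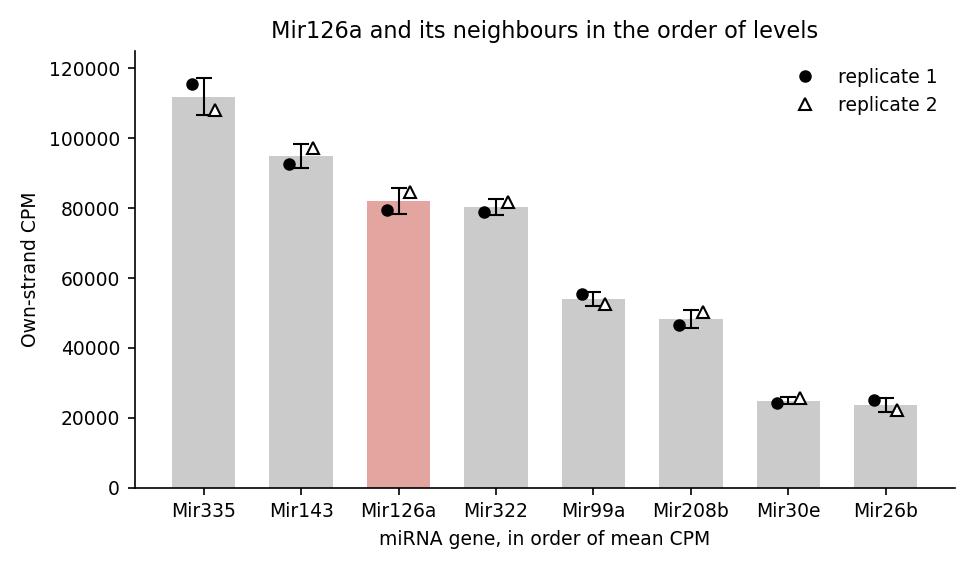
Own-strand CPM of Mir126a and the genes nearest to it in the order of mean CPM; bars are means, error bars SD (n = 2), circles replicate 1 and triangles replicate 2. Mir126a (82102.1 CPM) and Mir322 overlap in their replicates, and Mir335 and Mir143 stand above both.

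The distance between genes in log2(CPM + 1) over the 2 libraries gives the genes with the most similar levels. The nearest to Mir126a was Mir322 at 0.0510, followed by Mir143 at 0.297, Mir335 at 0.645, Mir99a at 0.860 and Mir208b at 1.08. With 2 libraries of 1 group this measure compares levels and says nothing of how the genes vary together. Across the detected genes the median was 80.5 CPM, and Mir126a was 1020-fold above it. Of the 419 detected genes, the 357 with the lowest levels summed to less than Mir126a alone. Hairpins are not compared per length here, because each yields mature products of about the same length. How well each miRNA is read cannot be seen in these files, so the order is one of counts and not of amounts of RNA.

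Beside marker miRNAs of other cell types, Mir126a was above all but Mir143. Of the markers fixed for this comparison, Mir142 and the Mir9 and Mir124a genes had no row or were not detected, and were left out. The other 22 were detected and all 22 differed by more than the spread, beside 100% of the 418 detected genes other than Mir126a. Mir126a was the higher in 21 of them, beside 99.5% of the 418. Neither count is thus particular to markers. The heart muscle miRNA Mir208b came nearest after Mir143, and Mir208a was next. Mir208a, in an intron of Myh6, reached 10261 CPM in replicate 1, with 11000 CPM in replicate 2, and was 7.72-fold below Mir126a. Mir499, in an intron of Myh7b, stood at 1663 and 1926 CPM, 45.9-fold below. Mir133b, which is also expressed in skeletal muscle, had 73 reads in replicate 1 and 13 in replicate 2, and Mir1a-1 had 55 and 3. The cardiomyocyte list of 7 counted genes, which are these 5, Mir133a-1 and Mir133a-2, took 6.08% ± 0.34 of own-strand reads (SD, n = 2). Mir126a alone exceeded that sum 1.36-fold in replicate 1 and 1.34-fold in replicate 2. The names of Mir1a-1, Mir133a-1 and Mir133a-2 mark miRNAs that can occur at several loci, and multimapping reads stood on no gene. Reads of these miRNAs may therefore be missing from the sum, which was not tested. The smooth muscle list, Mir143 and Mir145a, took 9.62% ± 0.35, and Mir126a reached 0.848 and 0.859 of it. Nearly all of that sum was Mir143, since Mir145a stood at 1163 and 1313 CPM, 66.4-fold below Mir126a.

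Red cell miRNAs and the counted leukocyte miRNAs were far lower. Mir451a, the miRNA of red cells, had 835 CPM in replicate 1, with 829 CPM in replicate 2, and Mir126a was 98.6-fold above it. Its cluster partner Mir144 stood at 160 and 154 CPM. The 3 erythroid markers (Mir451a, Mir144 and Mir486) together took 0.106% ± 0.003 of reads (SD, n = 2), 73.3-fold below Mir126a in replicate 1 and 81.8-fold in replicate 2. Mir223, a miRNA of granulocytes and monocytes, stood at 255 and 218 CPM, 348-fold below Mir126a. The leukocyte marker Mir142 was not counted separately, and the strand opposite the Mir142b row, where Mir142 lies, held 44629 reads in replicate 1 and 4183 in replicate 2. On the scale of the own-strand total this was 2417 and 2074 CPM, above Mir451a and Mir499 and below Mir126a.

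Markers of mesenchyme and epithelium spanned a wide range below Mir126a. Mir214, the highest of 4 mesenchyme genes, stood at 5112 and 4684 CPM, 16.8-fold below Mir126a, and Mir199b, at 321 and 333 CPM, was 251-fold below. The other mesenchyme genes, Mir199a-2 and Mir199a-1, had 751 and 49 reads in replicate 1, with 75 and 6 in replicate 2. The 7 epithelial markers took 0.214% of reads in replicate 1 and 0.149% in replicate 2, against which Mir126a was 37.1-fold and 56.9-fold higher. The liver miRNA Mir122 had 395 CPM in replicate 1, with 160 CPM in replicate 2. Of the 22 markers compared it had the widest spread beside Mir126a, at a log2 ratio of 8.35 ± 0.99 (SD, n = 2). The cardiomyocyte gene Mir133a-1, outside those 22, had a wider one, at 14.75 ± 1.17. Of 6 counted nerve cell genes, Mir137 was detected, at 24.7 and 23.3 CPM. Mir9-3 had 24 reads and Mir124a-2 had 3 in replicate 1 and both had 0 in replicate 2, and Mir9-2, Mir124a-1 and Mir124a-3 had 0 own-strand reads in both libraries. Names ending in a hyphen and a digit mark miRNAs that can occur at several loci, so their counts are uncertain. The part of other cell types in the level of Mir126a was not tested.

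**Figure D3:**
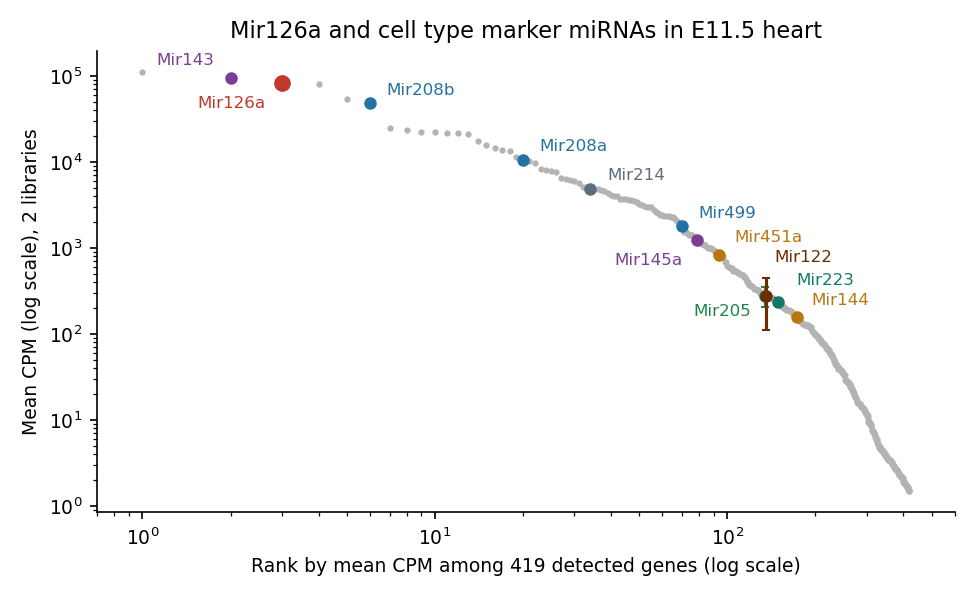
Mean CPM against rank for the 419 detected genes, both on log scales, with Mir126a and cell type marker miRNAs in colour and error bars giving SD (n = 2). Mir126a stands just below Mir143 and above the heart muscle, blood, mesenchyme, epithelial and liver markers.

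A list of 40 miRNA genes known for roles in endothelium and vessel growth sets Mir126a among its peers. Of these, 37 were counted and all 37 passed the detection limit, beside 419 of all 1973 counted genes. Mir126b, Mir24-1 and Mir146a had no row. The list took 31.0% of own-strand reads in replicate 1 and 31.9% in replicate 2, and Mir126a alone made up a fraction of 0.257 and 0.265 of that. A mean of at least 1000 CPM was reached by 18 members and of at least 10000 CPM by 7. All 36 other members were lower than Mir126a by more than the spread, Mir322 only narrowly, among 99.5% of all detected genes that were. The list was chosen with earlier results of these data known, and 7 of its counted members have names that mark several loci.

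Several members with roles in vessel growth were well counted. Mir130a, which favours angiogenesis, had 21566 CPM in replicate 1, with 23045 CPM in replicate 2, and was 3.68-fold below Mir126a. Mir21a stood at 21335 and 22210 CPM, 3.77-fold below. Mir23a, of a cluster that takes part in vessel sprouting, stood at 21280 and 22011 CPM, and its paralog Mir23b at 14183 and 14691 CPM. Mir17, of the Mir17 to Mir92-1 cluster, stood at 22123 and 20501 CPM. With Mir126a and Mir322, these are the 7 members with a mean of at least 10000 CPM, and each was 3.68-fold to 5.69-fold below Mir126a. The levels of other members continued below them, with Mir20a at a mean of 8093 CPM and Mir483 at 7845 CPM. Above them stood Mir322, at 78754.5 and 81862.6 CPM, which was 1.02-fold below Mir126a.

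Other members of the list were low. Mir210, the miRNA of low oxygen, stood at 1084 and 1157 CPM, 73.3-fold below Mir126a. Mir155, which is induced in inflamed endothelium and in leukocytes, stood at 128 and 129 CPM. Mir221 and Mir222, a pair that restrains the response of endothelium to stem cell factor, stood at 31.6 and 15.1 CPM in replicate 1 and at 25.3 and 13.4 CPM in replicate 2. Mir126a exceeded Mir221 2905-fold and Mir222 5771-fold. Membership in the list therefore covered a wide range of levels in the same hearts.

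Between the libraries, Mir126a was slightly higher in replicate 2. The ratio of its CPM in replicate 2 to replicate 1 was 1.065 (exact 95% interval 1.060 to 1.071), a log2 difference of 0.09. By the two-sided exact binomial test with Benjamini-Hochberg adjustment over all 419 detected genes, the adjusted p was 3.73e-131, and the difference was below the 2-fold limit, so Mir126a was not called. This test sets 2 libraries against each other, not 2 conditions, and counting error is its only error. For 2 libraries the smallest two-sided p of an exact sign-flip test is 0.5. By p alone, 123 genes (29.4%) passed, of which 60 (14.3%) were higher and 63 (15%) lower in replicate 2. With the 2-fold limit, 11 genes (2.63%) passed, 3 higher and 8 lower. Scaled by all mapped reads in place of miRNA reads, 138 were higher and 28 lower by p alone, and 5 higher and 7 lower with the 2-fold limit. Scaled by all reads, these numbers were 220 and 16, and 10 and 4. A ratio such as that of Mir126a was therefore common among genes at these depths.

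Among the 21 genes with a mean of at least 10000 CPM, 12 were higher and 9 lower in replicate 2, with log2 differences from -0.24 to 0.11. Of these genes, 10 differed by more than Mir126a in size. Over the whole set of detected genes, 277 differed by more. In the endothelial and angiogenic list, 0 of 37 detected members passed both the exact test and the 2-fold limit, beside 2.63% of all detected genes. By the adjusted p alone 15 were higher, 4 lower and 18 not called, beside 14.3% higher and 15% lower over all detected genes. With TMM or DESeq2 factors 12 members were higher and 4 lower, beside 50 and 68 of all 419 detected genes. Scaled by all mapped reads these numbers were 22 and 2, beside 138 and 28, and scaled by all reads 29 and 1, beside 220 and 16. Markers of other cell types also differed between the libraries by the same test. All 7 epithelial markers were lower in replicate 2, at a median log2 difference of -0.56, though Mir203 was higher when scaled by all reads. The liver marker Mir122 was lower, at a ratio of 0.405. Of 6 detected cardiomyocyte markers 4 were higher, as were both smooth muscle markers. The part of these differences in those of Mir126a and of the endothelial and angiogenic list was not tested. The median log2 difference of the endothelial and angiogenic list was 0.04, beside -0.01 over all detected genes. Mir10a, with 4226 CPM in replicate 1 against 3123 CPM in replicate 2, was a member that was lower in replicate 2, at a ratio of 0.739 and an adjusted p of 1.28e-126 by the exact binomial test.

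**Figure D4:**
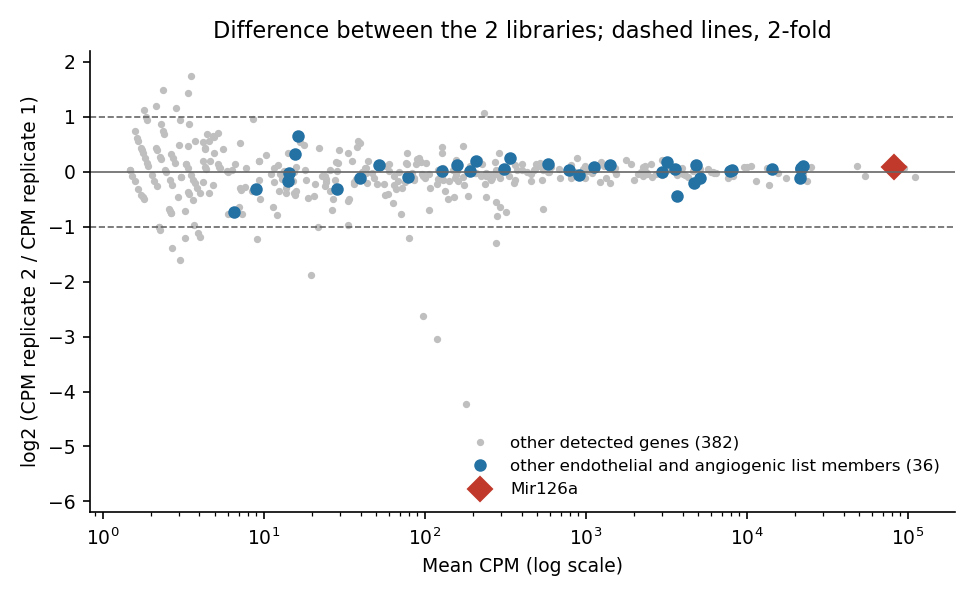
The log2 ratio of CPM in replicate 2 to replicate 1 against mean CPM (log scale) for the 419 detected genes, with Mir126a as a diamond, other endothelial and angiogenic list members as large points, and dashed lines at a 2-fold difference. Mir126a lies at 0.09, inside both lines.

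By its place in a host gene, Mir126a was at or near the top of each class of miRNA genes. Where a miRNA overlaps an exon of any same-strand transcript it was counted as exonic, which for Mir126a rests on the retained intron transcript alone. Among 343 such genes, 110 were detected, and Mir126a was the highest, with the next, Mir21a, at a mean of 21772 CPM. Mir126a made up 36.1% of the reads of this class in replicate 1 and 38.2% in replicate 2. Among 720 genes in introns, where the Mir126a hairpin lies in 8 other Egfl7 transcripts, only Mir335 was above it. Among 831 genes with no same-strand host, only Mir143 was.

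On chromosome 2, Mir126a stood apart in level. The chromosome carries 224 counted miRNA genes, of which 34 were detected, and the 224 together made up 12.2% of own-strand reads in replicate 1 and 12.8% in replicate 2. Mir126a took 65.4% and 66.1% of those reads. Next was Mir130a, 3.68-fold lower. The nearest counted gene, Mir6996 in an intron of Notch1, lies 121 kb from the Mir126a hairpin and had 9 reads in replicate 1 and 2 in replicate 2. The next on that side, Mir7664, lies 1531 kb away and had 0 and 1 reads. On the other side Gm24049, at 810 kb, had 5 and 0 reads, and Mir7578 in Brd3, at 859 kb, had 1 and 0. Mir126a was thus surrounded by miRNA genes with few or no reads.

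The seed of miR-126a-3p has few matches in mouse messages. The match to bases 2 to 8, CGGTACG, was searched on the message strand of the longest 3′ UTR of 21028 protein-coding genes, whose median length was 960.5 bases. It occurred in 33 genes (0.157%). The match to bases 2 to 7 followed by A, GGTACGA, overlaps it in 6 bases and occurred in 154 genes (0.732%), and 174 genes (0.827%) held either. For 37 other mature miRNAs, from 19 other genes with a mean of at least 10000 CPM, the match to bases 2 to 8 occurred in 0.932% to 20.3% of genes, with a median of 11.7%. None of these 37 was below miR-126a-3p. Mir143, which also has such a level, the 3′ arm product of Mir23b and miR-126a-5p were not analysed here. The shares given for Mir126a thus cover miR-126a-3p alone, while most of the other genes are covered by both arms. The match of miR-126a-3p holds the dinucleotide CG at 2 places. The matches of the 8 other miRNAs that hold it at 1 place occurred in 0.932% to 1.75% of genes, and those of the 29 without it in 7.19% to 20.3%. Some of the 37 have the same match, such as miR-208a-3p and miR-208b-3p, or miR-30a-5p and miR-30e-5p. These numbers and the median thus count miRNAs and not distinct matches.

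**Figure D5:**
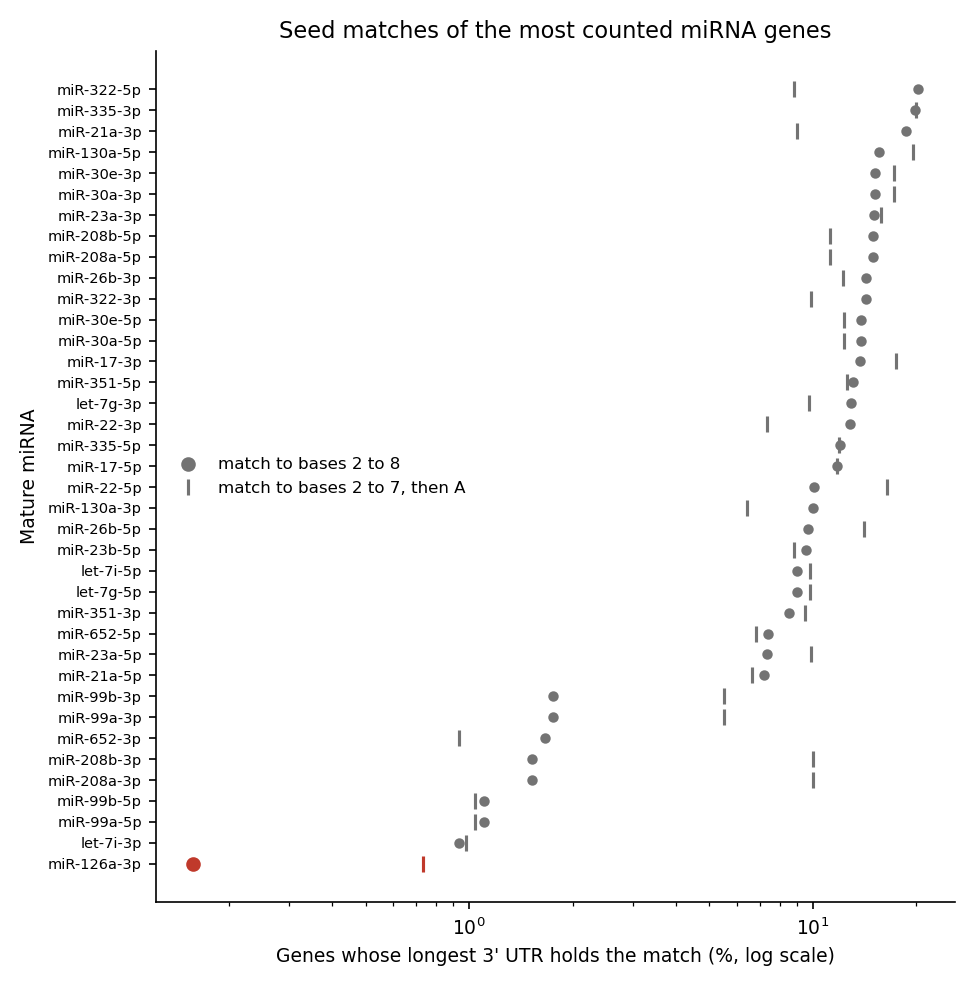
Share of 21028 genes (log scale) whose longest 3′ UTR holds the seed match of each mature miRNA. Shown are Mir126a and 19 other miRNA genes with a mean of at least 10000 CPM (Mir143 and miR-126a-5p were not analysed). Circles are matches to bases 2 to 8 and ticks matches to bases 2 to 7 followed by A; miR-126a-3p, in red, is lowest of those drawn by both, at 0.157% and 0.732%.

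Of 6 genes known as miR-126 targets, 3 held a match in the longest 3′ UTR, in each case the match to bases 2 to 7 followed by A. They are shown with the match in capitals, since they are the sites to which miR-126a-3p could pair by its seed.
Spred1 site: tttaactaaatgtaaGGTACGA
Irs1 site: tcctcttcagtagatGGTACGA
Crk site: atttaccatattcagGGTACGA
Spred1 encodes an inhibitor of Ras signalling, and its match lies at bases 511 to 517 of a 3′ UTR of 4330 bases. Irs1 encodes an adaptor of the insulin receptor, with the match at bases 132 to 138 of 4525. Crk encodes an adaptor in adhesion signalling, with the match at bases 301 to 307 of 3535. The longest 3′ UTRs of Pik3r2, Vcam1 and Cxcl12 held neither form of the match, which says only that these letters are not in those windows. Small RNA counts hold no measurement of these messages, so no effect of Mir126a on them was measured here.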

How the data were processed

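The tables deposited by the authors hold raw read counts for each miRNA gene and library, on mm10 with GENCODE M4, as the accompanying notes state in their headers. No aligner or counter is named in the sources used here. The count columns are unlabelled. They were taken from their sums as reads on both strands, own strand and opposite strand, and the 4 summary rows naming no gene were left out of totals. Own-strand counts were scaled to CPM, with 1000000 as the total. IDs were matched to GENCODE M21 on the same build (1894 of 1973 matched). Of the counted genes, 869 had a RefSeq hairpin by symbol.

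Libraries were compared by exact binomial tests with p-values adjusted by Benjamini and Hochberg, called at 0.05 with a 2-fold limit, and the calculation was tested on simulated data. Other scalings used edgeR 4.0.16 and DESeq2 1.42.0, and folding ViennaRNA 2.7.2. Python 3.11.15, scipy 1.17.1 and R 4.3.3 were used. Named genes were Mir126a, up to 5 genes above and 5 below it, the 5 nearest in level, the 2 nearest counted genes on each side and list members. The gene, lists and rules were chosen with earlier results of these data known. Denominators of all mapped or all reads, and the match to bases 2 to 7 followed by A, were alternatives chosen after seeing the data.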

Additional observations from a re-analysis of the deposited data

Results flagged for a closer look

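Reads on the strand opposite Mir126a, which no comparison of the levels uses, numbered 81 in replicate 1 and 8 in replicate 2. Both numbers were above the 3 counts that a count of 0 allows.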

How the results depend on the processing

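Of 92 recalculations, 89 kept their direction and call or moved by less than the spread, and 3 moved by more. This tally is no measure of stability. With 2 libraries, a level or strand share with 1 library left out always lies within the SD of the mean. Most recalculations were of ratios to single markers, nearly all far from equality. The mean level of Mir126a was 82102.1 CPM, and it was 78383.7 CPM with both strands in count and total, 44816.2 per 1000000 mapped reads, and 89454.5 CPM with Mir126a left out of the total. With 1 library left out at a time, the level lay between 79504.6 and 84699.6 CPM, and Mir126a was the third gene in both. The ratio of the libraries was 1.055 with TMM or DESeq2 factors, 1.17 per mapped read and 1.38 per read. Genes called between the libraries numbered 11 at a detection limit of 1 CPM (3 higher in replicate 2), 7 at 10 CPM (1 higher) and 14 per read (10 higher). At the depth of replicate 2, a gene at up to 1.49 CPM could give a count of 0. The detection limit of 1 CPM lies below that level, so detected genes near it rest on few reads in replicate 2. No paired analysis was possible because there is 1 group.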
